A study of Mus musculus with 6 samples.

Results

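The genes described here are the 4 genes of the ID family (Id1, Id2, Id3 and Id4), 5 SMAD genes (Smad1, Smad4, Smad5, Smad6 and Smad7) and the receptor gene Bmpr1a. They were chosen by gene symbol, and all 10 had a row among the 24318 genes of the table. They were measured by ribosomal RNA-depleted RNA sequencing in CAD, a catecholaminergic cell line of mouse neuronal origin, with 3 libraries labelled si circGIGYF2 (here siCircGigyf2) and 3 labelled si NC (here siNC), taken as the control siRNA. The first siRNA targets circGigyf2, a circular RNA named for the gene Gigyf2. All 6 libraries came from this 1 line, and no label used here gives the amount of siRNA or the time after transfection. The series concerns circular RNAs in Alzheimer disease, and the comparison addresses the RNA levels that follow targeting of circGigyf2.

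Bone morphogenetic proteins (BMPs), ligands of the TGF-beta superfamily, bring type I and type II receptor kinases together at the cell surface. The activated type I receptor phosphorylates Smad1, Smad5 and Smad9, which join Smad4, enter the nucleus and switch on target genes, among them the ID genes and the inhibitory Smad6 and Smad7. ID proteins carry a helix-loop-helix region but no DNA-binding basic region, so they pair with E proteins such as Tcf3, Tcf4 and Tcf12 and keep them from DNA. In sympathetic and other neuronal lineages ID proteins are known for holding back differentiation driven by basic helix-loop-helix (bHLH) factors.

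Id2 and Id3 were lower in the siCircGigyf2 libraries, at 68.3% and 76.1% of the control level, whereas none of the 5 SMAD genes passed the test. FPKM are fragments scaled by transcript length and by the mapped fragments of the library, so levels of different genes can be set beside each other. Genes with a mean of at least 1 FPKM were tested on log2(FPKM + 1) with limma, and a gene passed at an adjusted p under 0.05. Of the 10 genes, 9 were tested, 4 fell (Id1, Id2, Id3 and Bmpr1a) and 0 rose. Over all 11420 genes tested, 38.2% passed, 18.7% lower and 19.5% higher. The 4 of 9 (44.4%) is near the 38.2% of all genes that passed in either direction, and too few genes are counted to read more from it. The median difference of the 9 genes was -0.09 on the log2 scale, beside 0.00035 for all genes tested. Id1 and Bmpr1a passed narrowly, and both calls were lost whichever library was left out.

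The sequence upstream of the start site is shown for Id2 and Id3, because these 2 genes fell together. Both are the 250 bases before the RefSeq start, on build GRCm38.p6, printed 5′ to 3′ on the gene's strand. Capitals mark matches to GGCGCC, a GC-rich palindrome bound by Smad1 and Smad5 complexes, and to CCAAT, the CCAAT box, on either strand (ATTGG where reversed). The Id2 window is chr12:25096093-25096342 on the minus strand, and the Id3 window is chr4:136143572-136143821 on the plus strand.
Id2: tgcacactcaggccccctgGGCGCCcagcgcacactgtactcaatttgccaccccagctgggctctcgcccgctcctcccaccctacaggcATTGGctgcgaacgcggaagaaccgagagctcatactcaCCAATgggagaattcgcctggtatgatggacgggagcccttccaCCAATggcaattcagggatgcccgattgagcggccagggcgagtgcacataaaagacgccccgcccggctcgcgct
Id3: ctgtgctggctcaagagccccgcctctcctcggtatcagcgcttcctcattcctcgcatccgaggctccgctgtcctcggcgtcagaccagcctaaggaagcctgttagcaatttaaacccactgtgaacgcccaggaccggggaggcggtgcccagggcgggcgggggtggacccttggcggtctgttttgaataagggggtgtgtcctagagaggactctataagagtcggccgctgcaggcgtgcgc
The Id2 window held 1 GGCGCC, starting 231 bases before the start, and 3 CCAAT boxes, at 159, 120 and 76 bases before it, and none of these matches overlapped. The Id3 window held neither, although both windows had a GC content of 62.8%. GGCGCC occurred in 9.59% of all 32851 upstream windows of this length and CCAAT in 33.9%, and 2.79% held CCAAT at least 3 times, a count set after the Id2 window was seen. The palindrome GTCTAGAC, a Smad3 and Smad4 binding sequence, was in 0.167% of windows and in none of those found for these genes. The RefSeq table held windows for 7 of the 10 genes (Id1, Smad4 and Smad7 had no entry). Among the others, GGCGCC lay upstream of Id4, Bmpr1a and 1 of 3 Smad5 starts. The GC content of these windows was 75.6%, 78.8% and 66.4% in turn, and the share over all windows was not matched for GC content. CCAAT was not particular to Id2 either, as it also lay upstream of Id4, Bmpr1a, Smad1 and Smad5 (not at every Smad5 start). These matches describe letters and do not show binding.

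Id2 moved farthest of the genes tested here. Its FPKM were 38.7, 35.0 and 33.2 in siCircGigyf2 replicates 1, 2 and 3, against 53.0, 50.5 and 53.0 in siNC replicates 1, 2 and 3, the order in which values are given throughout. All 3 siCircGigyf2 libraries lay below all 3 siNC libraries, with a gap wider than the range of either group. The mean was 35.6 ± 2.79 FPKM (SD, n = 3) against 52.2 ± 1.45 FPKM, and Id2 fell (log2 difference -0.54, SE 0.053, 95% interval -0.66 to -0.42, limma adjusted p = 0.000111). Id3 had 17.2, 17.1 and 17.6 FPKM, against 22.0, 22.0 and 24.3 FPKM. The siCircGigyf2 values for Id3 were tightly grouped and again all lower. Its mean was 76.1% of the control (17.3 ± 0.242 against 22.8 ± 1.33 FPKM), and it fell (log2 difference -0.37, SE 0.046, 95% interval -0.48 to -0.27, limma adjusted p = 0.000335). Both calls held under all 14 alternative settings tried, Id2 between -0.60 and -0.49 and Id3 between -0.40 and -0.33 on the log2 scale.

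Id1, the most abundant of the family, differed far less. Its FPKM were 94.8, 94.2 and 90.3, against 102, 98.0 and 97.9 with the control siRNA. The groups did not overlap, but the gap was smaller than the range within either group. Its mean was 93.9% of the control, and it fell (log2 difference -0.09, SE 0.031, limma adjusted p = 0.0489). Leaving out any of the 6 libraries ended the call, with adjusted p from 0.056 without siCircGigyf2 replicate 1 to 0.172 without siNC replicate 1. It was lost too without the filter (0.062), without a variance trend (0.11) and with robust empirical Bayes (0.0534). Id4 was listed under 1 FPKM in every library, at 0.643, 0.327 and 0.597 FPKM against 0.928, 0.762 and 0.912 FPKM. The siCircGigyf2 libraries were the lower ones for Id4 too, at 60.2% of the control mean, but it was under the minimum of 1 FPKM and was not part of the test. In a fit without that minimum its difference was -0.30 in log2 units (SE 0.090, limma adjusted p = 0.0597). Exons of 2 noncoding genes on the opposite strand overlap Id4 exons in the GENCODE annotation, and whether strand was used in counting is not known here.

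**Figure D1:**
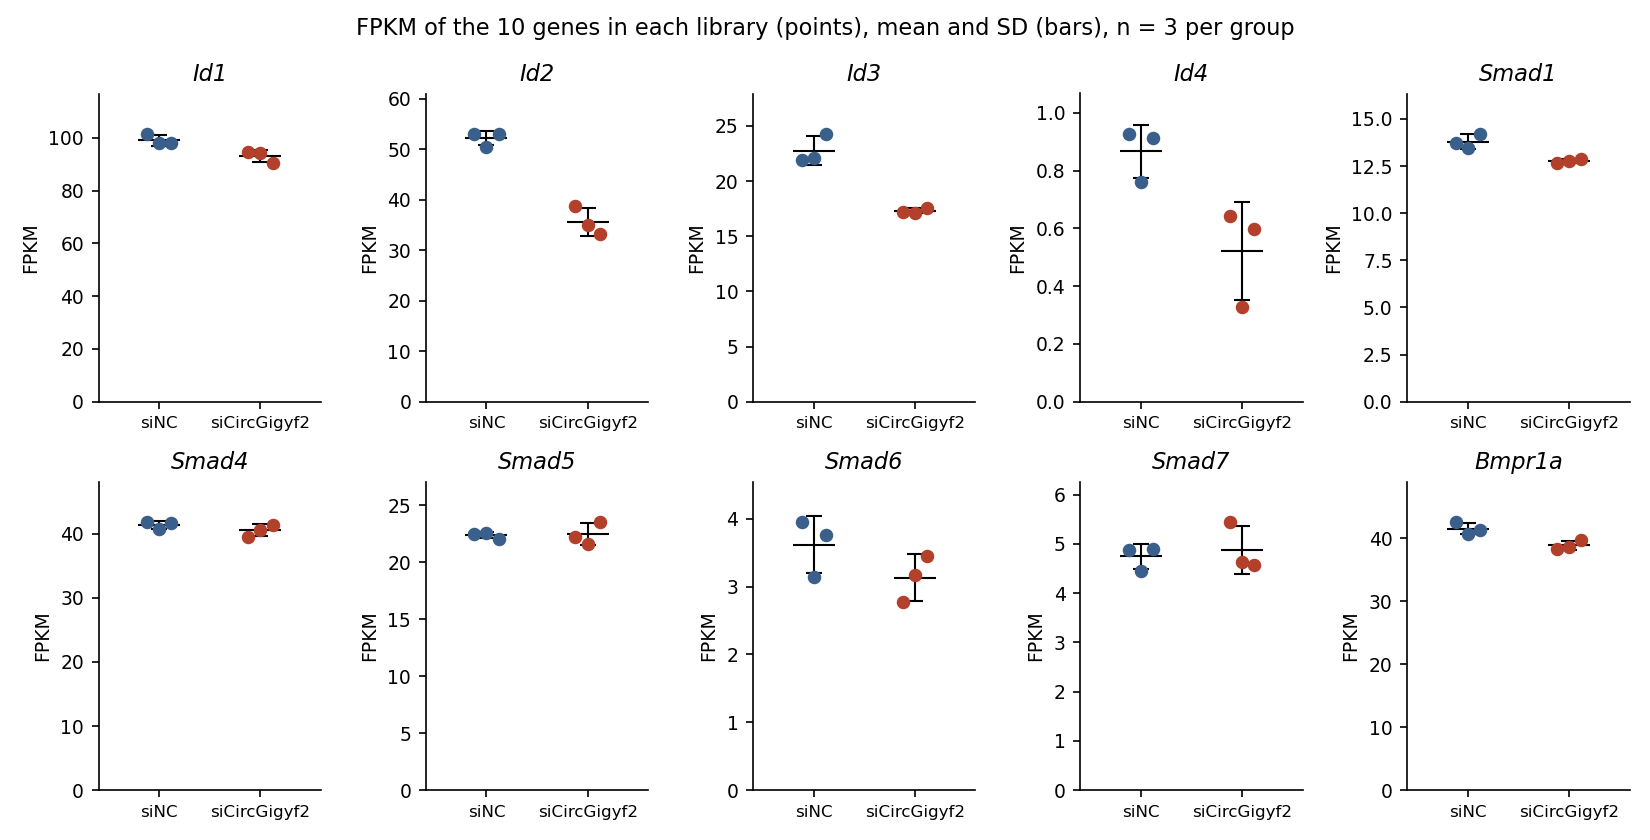
FPKM of each of the 10 genes (vertical axes from 0, a different scale for each gene) in the 3 siNC libraries (blue) and the 3 siCircGigyf2 libraries (red); points are libraries, bars are the mean and SD. Id2 and Id3 show a clear gap between the groups, while the points of Smad4, Smad5, Smad6 and Smad7 overlap.

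The make-up of the ID family in FPKM is given as a description. It reuses the values above, and none of the ratio tests that follow passed. Summed over the 4 genes, ID transcripts came to 151, 147 and 142 FPKM, against 177, 171 and 176 FPKM. The Id1 share of that sum was 63.5% ± 0.808 (SD, n = 3) against 56.7% ± 0.924, and the Id2 share was 24.3% ± 1.12 against 29.8% ± 0.303. Id3 made up 11.8% against 13.0%, and Id4 under 1% in every library. Within each library the ratio of Id2 to Id1 was 0.408, 0.372 and 0.367 in the siCircGigyf2 group and 0.522, 0.516 and 0.541 in the siNC group. The ratio of Id3 to Id1 also separated the groups, at 0.182, 0.182 and 0.195 against 0.216, 0.225 and 0.248. The ratio of Id2 to Id3 did not separate them (2.24, 2.04 and 1.88 against 2.42, 2.29 and 2.18). Exact two-sided permutation tests of these 3 log2 ratios gave p = 0.1, 0.1 and 0.2 in turn (0.15, 0.15 and 0.2 adjusted over the 3 pairs), where 3 libraries against 3 cannot go below 0.1.

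Neither Smad4 nor the SMADs that act downstream of BMP receptors passed the test. Smad4, the shared partner of receptor-activated SMADs, was listed at 39.5, 40.7 and 41.4 FPKM against 41.8, 40.7 and 41.6 FPKM in the siNC libraries. The groups overlapped, and the log2 difference was -0.03 with a 95% interval of -0.10 to 0.04 (limma adjusted p = 0.496), and it was -0.012 without siCircGigyf2 replicate 1 and -0.045 without siCircGigyf2 replicate 3. Smad5 stood at 22.2, 21.6 and 23.5 FPKM against 22.5, 22.5 and 22.0 FPKM. Its siCircGigyf2 values spanned its control values, with a log2 difference of 0.0048 and a 95% interval of -0.085 to 0.095 (limma adjusted p = 0.937), and the sign changed when siCircGigyf2 replicate 3 (-0.027) or siNC replicate 3 (-0.0055) was left out. Smad1 had 12.7, 12.8 and 12.9 FPKM, against 13.7, 13.5 and 14.2 FPKM. All siCircGigyf2 values of Smad1 were below all control values, at 92.4% of the control mean, but the log2 difference of -0.11 (SE 0.040) had an adjusted p of 0.0653 in limma and did not pass in any of the 14 alternatives. A misc_RNA gene lies within a Smad5 exon in GENCODE, so its reads could count for Smad5.

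The inhibitory SMADs, which are induced by the pathway and dampen it, were the least abundant of the SMAD genes. Smad6 was listed at 2.77, 3.17 and 3.46 FPKM against 3.95, 3.14 and 3.76 FPKM, and Smad7 at 5.44, 4.62 and 4.57 FPKM against 4.87, 4.45 and 4.90 FPKM. Both pairs of groups overlapped. The 95% intervals of the log2 difference were the widest of the genes tested here, -0.37 to 0.05 for Smad6 (limma adjusted p = 0.197) and -0.14 to 0.20 for Smad7 (adjusted p = 0.767). The Smad6 interval thus allows a fall nearly as large as the one measured for Id3, and its difference of -0.16 was -0.095 without siCircGigyf2 replicate 1. The Smad7 difference of 0.03 changed sign without siCircGigyf2 replicate 1 (-0.037) or siNC replicate 2 (-0.0063).

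Bmpr1a encodes a type I receptor kinase for BMPs. Its FPKM were 38.3, 38.6 and 39.6, against 42.5, 40.7 and 41.3. The groups did not overlap, but only about 1 FPKM lay between the nearest libraries. Bmpr1a fell (log2 difference -0.09, SE 0.032, limma adjusted p = 0.0461), to 93.6% of the control mean. The call was lost without any of the 6 libraries, with adjusted p from 0.0518 without siCircGigyf2 replicate 3 to 0.162 without siNC replicate 1, and without a variance trend (0.0882). An antisense gene shares up to 290 bases with a Bmpr1a exon in GENCODE. Of the 9 genes tested, 5 (Id1, Id2, Id3, Smad1 and Bmpr1a) had groups that did not overlap, all with siCircGigyf2 lower, where 51.0% of all genes tested did not overlap and 25.3% did so with siCircGigyf2 lower.

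**Figure D2:**
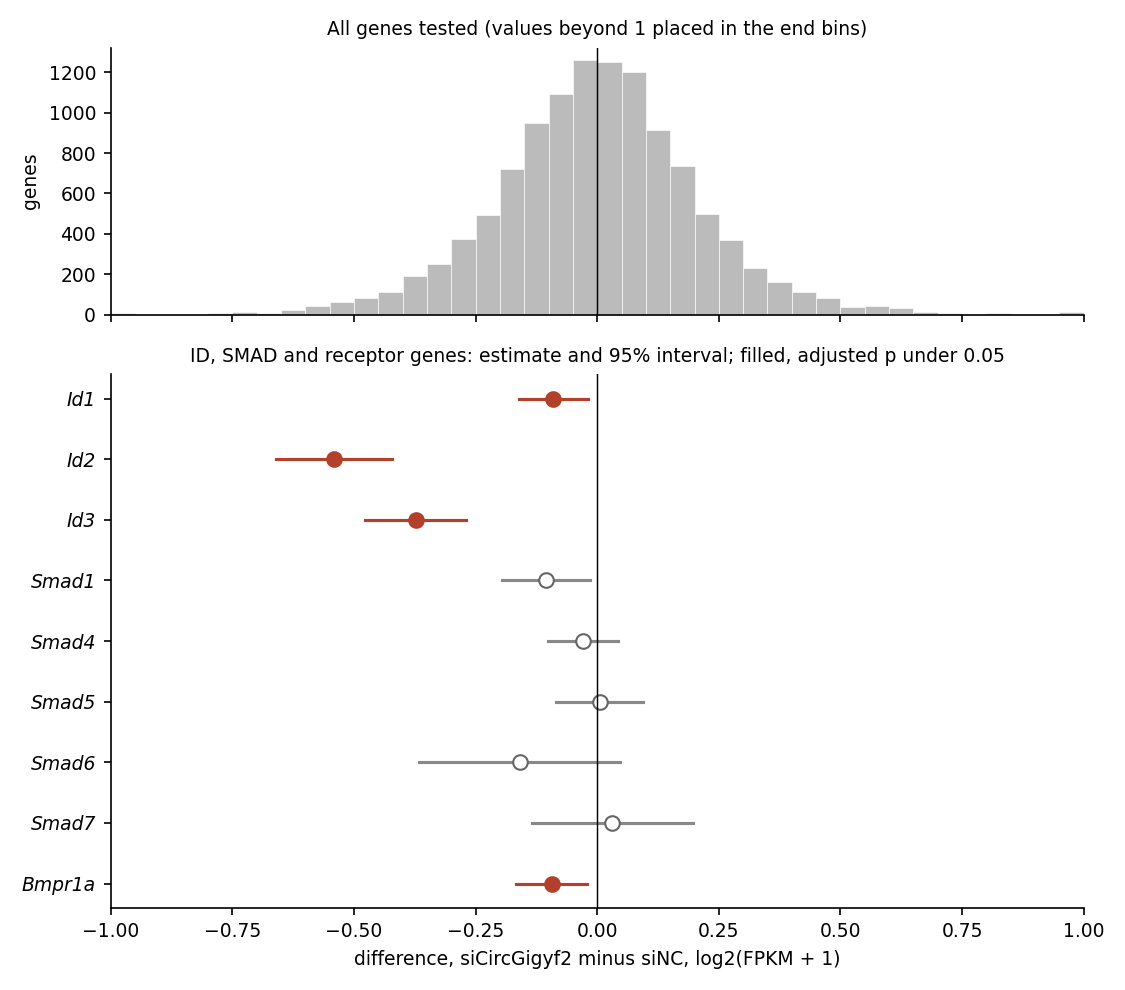
Top, number of genes (vertical axis) by log2(FPKM + 1) difference, siCircGigyf2 minus siNC (horizontal axis), for all 11420 genes tested; bottom, the same difference for the 9 tested genes with 95% intervals, filled where the adjusted p was under 0.05. Id2 (-0.54) and Id3 (-0.37) lie in the left tail of the distribution, and the other 7 genes lie near its centre.

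By level, the order in the siNC libraries was Id1, Id2, Bmpr1a, Smad4, Id3, Smad5, Smad1, Smad7, Smad6 and Id4. Bmpr1a and Smad4 overlapped in FPKM, as did Id3 and Smad5, and the other neighbours did not. In the siCircGigyf2 libraries Id2 stood below Bmpr1a and Smad4 in mean FPKM, with its range overlapping that of Bmpr1a, and Id3 stood below all 3 Smad5 values. Id1 was more abundant than 93.1% of the genes tested and Smad6 than 16.5%.

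The partners that ID proteins bind moved in both directions. Tcf4, an E protein and the most abundant of the 3, was listed at 66.5, 63.5 and 67.8 FPKM against 55.1, 54.1 and 55.5 FPKM, and rose (log2 difference 0.26, SE 0.033, limma adjusted p = 0.000415). Tcf3 (8.76 ± 0.377 against 9.95 ± 0.314 FPKM, SD, n = 3) and Tcf12 (14.2 ± 0.420 against 15.6 ± 0.453 FPKM) fell, with log2 differences of -0.17 and -0.12 (limma adjusted p = 0.0264 and 0.048). The Tcf3 call was lost without siCircGigyf2 replicate 1 (adjusted p = 0.0785) or 3 (0.0619) or siNC replicate 1 (0.0607) or 2 (0.0901), and the Tcf12 call without any library but siNC replicate 2 (adjusted p from 0.0612 to 0.137), without the filter (0.064) and without a variance trend (0.0562). The ratio of summed ID to summed E protein FPKM was 1.69, 1.70 and 1.56 in the siCircGigyf2 libraries and 2.20, 2.16 and 2.17 in the siNC libraries. The siCircGigyf2 libraries were all lower, with a lower ID sum and a higher E protein sum. Of the 3 E proteins only Tcf4 was higher, and the ratio was not tested. These are RNA levels, and the proteins were not measured.

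**Figure D3:**
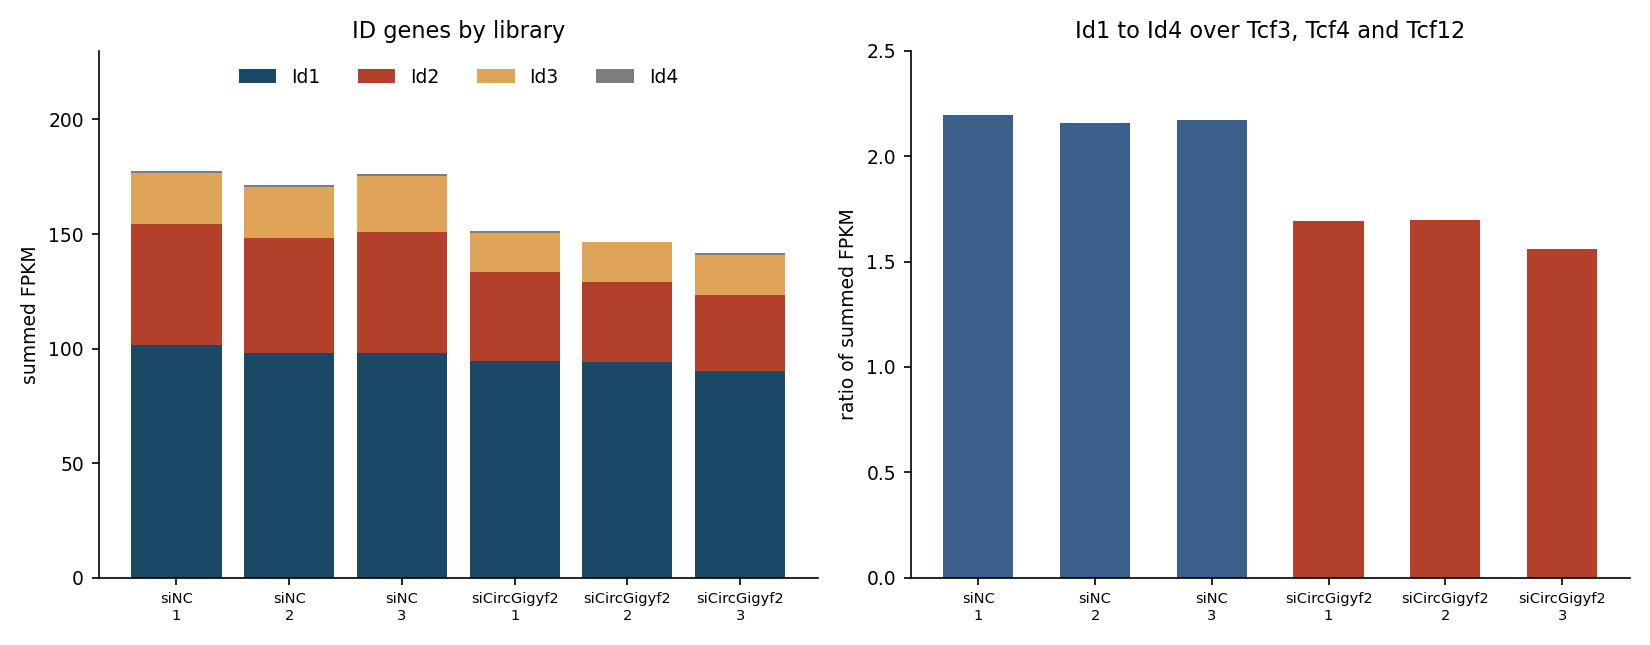
Left, summed FPKM of Id1 to Id4 in each library, stacked by gene; right, the ratio of that sum to the summed FPKM of Tcf3, Tcf4 and Tcf12 in each library (siNC blue, siCircGigyf2 red). The ID sum is 142 to 151 FPKM with the circGigyf2 siRNA and 171 to 177 FPKM with the control siRNA, and Id2 loses the most.

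Of 20 tissue-specific bHLH genes listed, which pair with E proteins, 4 were tested, 3 rose and 0 fell (median 0.21), where 19.5% of all genes tested rose. Only 1 of them rose without siCircGigyf2 replicate 1 or 3, or without the filter on low values. Hand2, a bHLH factor of sympathetic neurons, was at 167, 169 and 171 FPKM against 146, 149 and 152 FPKM and rose (log2 difference 0.18, SE 0.028, limma adjusted p = 0.00126). Summed ID FPKM was 0.869 ± 0.038 of Hand2 FPKM (SD, n = 3) against 1.18 ± 0.036. Neurod1, a neuronal differentiation factor, and Twist1, a mesenchymal factor, rose by 0.34 and 0.23 (adjusted p = 0.0389 and 0.0437). The Neurod1 call was lost without siCircGigyf2 replicate 1 (adjusted p = 0.128) or 3 (0.0569) or siNC replicate 2 (0.0725) or 3 (0.114), without the filter (0.107) and without a variance trend (0.0583). The Twist1 call was lost without siCircGigyf2 replicate 1 (adjusted p = 0.137) or 3 (0.111) or siNC replicate 1 (0.101) or 2 (0.127), and without the filter (0.102). Of the HES and HEY repressors, another family of inhibitory bHLH factors, 3 of 6 were tested and 0 passed, at an adjusted p of 0.0596 or more.

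Of the 3 other SMADs, 2 fell and 0 rose, and both that fell belong to the TGF-beta and activin branch, where 18.7% of all genes tested fell. Smad3, which carries TGF-beta and activin signals, was listed at 6.88, 7.33 and 6.77 FPKM against 8.92, 8.21 and 9.10 FPKM and fell (log2 difference -0.29, SE 0.056, limma adjusted p = 0.00382). Smad2, which acts with Smad3, averaged 13.6 ± 0.314 against 15.0 ± 0.160 FPKM (SD, n = 3) and fell by 0.13 (adjusted p = 0.0236), a call lost without any library but siCircGigyf2 replicate 3 (adjusted p from 0.0528 to 0.0715), which leaves 1 that fell. Smad9, activated by BMP receptors as Smad1 and Smad5 are, averaged 7.81 against 7.69 FPKM with overlapping groups (log2 difference 0.02, 95% interval -0.10 to 0.14), and its sign changed without siNC replicate 2 (-0.0076). Summed FPKM of Smad1, Smad5 and Smad9 was 42.8, 41.8 and 44.4 against 43.8, 43.3 and 44.4. That of Smad2 and Smad3 was 20.4, 20.6 and 20.7 against 23.9, 23.3 and 23.9, with no overlap. The difference between these branches was not tested.

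Of 33 ligand genes of the superfamily, 7 were listed at 0 in every library, 8 were tested, 3 fell and 1 rose (50% passed, beside 38.2% of all genes). Bmp2 and Bmp4 were among those listed at 0, which does not show that their RNA was missing. Gdf11, a ligand that signals through activin receptors, was at 7.88, 7.58 and 8.04 FPKM against 13.1, 11.9 and 12.4 FPKM and fell (log2 difference -0.61, SE 0.049, limma adjusted p = 5.04e-05), farther than Id2. Tgfb1 was at 12.7, 13.1 and 13.6 FPKM against 9.85, 9.46 and 9.46 FPKM and rose by 0.42 (SE 0.044, adjusted p = 0.000169). Bmp7, the only gene named as a BMP among the 8 ligands tested, averaged 8.91 ± 0.301 against 10.1 ± 0.480 FPKM (SD, n = 3) and fell by 0.17 (adjusted p = 0.0287). The Bmp7 call was lost without siCircGigyf2 replicate 1 (adjusted p = 0.0700) or 2 (0.0793) or siNC replicate 1 (0.104) or 3 (0.0651), and without the filter (0.0535). When any of these libraries was left out, the remaining ligand besides Gdf11 lost its call too, so 1 ligand fell. Without siCircGigyf2 replicate 3 or siNC replicate 2, 2 ligands fell.

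Of 16 other receptors and coreceptors, 10 were tested, 2 rose and 1 fell (30% passed, beside 38.2% of all genes). Bmpr2, a type II receptor that partners Bmpr1a, was at 27.0, 25.0 and 26.3 FPKM against 30.5, 30.3 and 31.0 FPKM and fell (log2 difference -0.22, SE 0.037, limma adjusted p = 0.00167). The activin type II receptor genes Acvr2a and Acvr2b rose by 0.22 and 0.24 (adjusted p = 0.0101 and 0.0365). The Acvr2b call was lost without siCircGigyf2 replicate 1 (adjusted p = 0.0611) or 2 (0.0903) or siNC replicate 1 (0.0689) or 2 (0.118), without the filter (0.0932) and without a variance trend (0.0547), and its log2 rise was 0.16 without siCircGigyf2 replicate 2. Acvr1, another BMP type I receptor, averaged 18.3 against 18.2 FPKM, with a log2 difference of 0.01 and a 95% interval of -0.08 to 0.10, and its sign changed without siCircGigyf2 replicate 1 (-0.0094) or siNC replicate 2 (-0.0065) and after quantile normalization (-0.0010).

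Of 21 extracellular antagonists and modulators, 10 were tested, 3 rose and 2 fell (50% passed, beside 38.2% of all genes). Fst, which encodes the activin and BMP antagonist follistatin, was at 28.6, 28.3 and 28.8 FPKM against 36.2, 37.4 and 39.5 FPKM and fell (log2 difference -0.39, SE 0.038, limma adjusted p = 0.00011). Bmper, a BMP-binding regulator, was at 2.67, 2.66 and 2.75 FPKM against 4.03, 3.93 and 4.13 FPKM and fell by 0.44 (SE 0.060, adjusted p = 0.000572). Bmp1, a protease that cleaves the antagonist chordin and is not itself a BMP ligand, rose from 18.9 ± 0.199 to 22.4 ± 0.137 FPKM (SD, n = 3), by 0.23 (adjusted p = 0.000751). Nog, the gene of the antagonist noggin, was listed at 0 in all 6 libraries.

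Of 30 intracellular regulators of SMADs, 28 were tested, 6 rose and 6 fell (median 0.05), so that 42.9% passed, beside 38.2% of all genes. Zfyve16, an endosomal protein that binds SMADs, fell from 15.8 ± 0.339 to 13.2 ± 0.240 FPKM (SD, n = 3), or -0.24 as a log2 difference (limma adjusted p = 0.00156). Fkbp1a, which encodes FKBP12, a protein that holds type I receptors inactive, rose from 226 ± 2.23 to 253 ± 4.19 FPKM, by 0.16 (adjusted p = 0.00184). Lemd3, a nuclear membrane protein that antagonizes SMAD signalling, rose from 22.0 ± 0.375 to 25.7 ± 0.723 FPKM, by 0.21 (adjusted p = 0.00185).

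Of 25 genes known to respond to BMP or TGF-beta, ID genes and inhibitory SMADs apart, 14 were tested, 7 rose and 2 fell (median 0.18). Thus 64.3% passed, where 19.5% of all genes tested rose and 18.7% fell. Atoh8, a bHLH gene induced by BMP signals, was at 3.62, 4.20 and 3.87 FPKM against 5.25, 4.99 and 5.51 FPKM and fell (log2 difference -0.35, SE 0.066, limma adjusted p = 0.00316). Cyr61, a matricellular protein gene, was at 6.67, 6.74 and 7.03 FPKM against 4.51, 4.84 and 4.29 FPKM and rose by 0.50 (SE 0.058, adjusted p = 0.000272). Junb, a subunit of the transcription factor AP-1, was at 43.2, 44.8 and 40.4 FPKM against 31.8, 31.2 and 34.2 FPKM and rose by 0.39 (SE 0.048, adjusted p = 0.000362). Many of these genes respond to other signals as well. Over all lists other than the 10 genes, 157 genes had a row and 83 were tested. Of these 83 genes, 23 rose and 18 fell (49.4%, beside 38.2% of all genes).

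**Figure D4:**
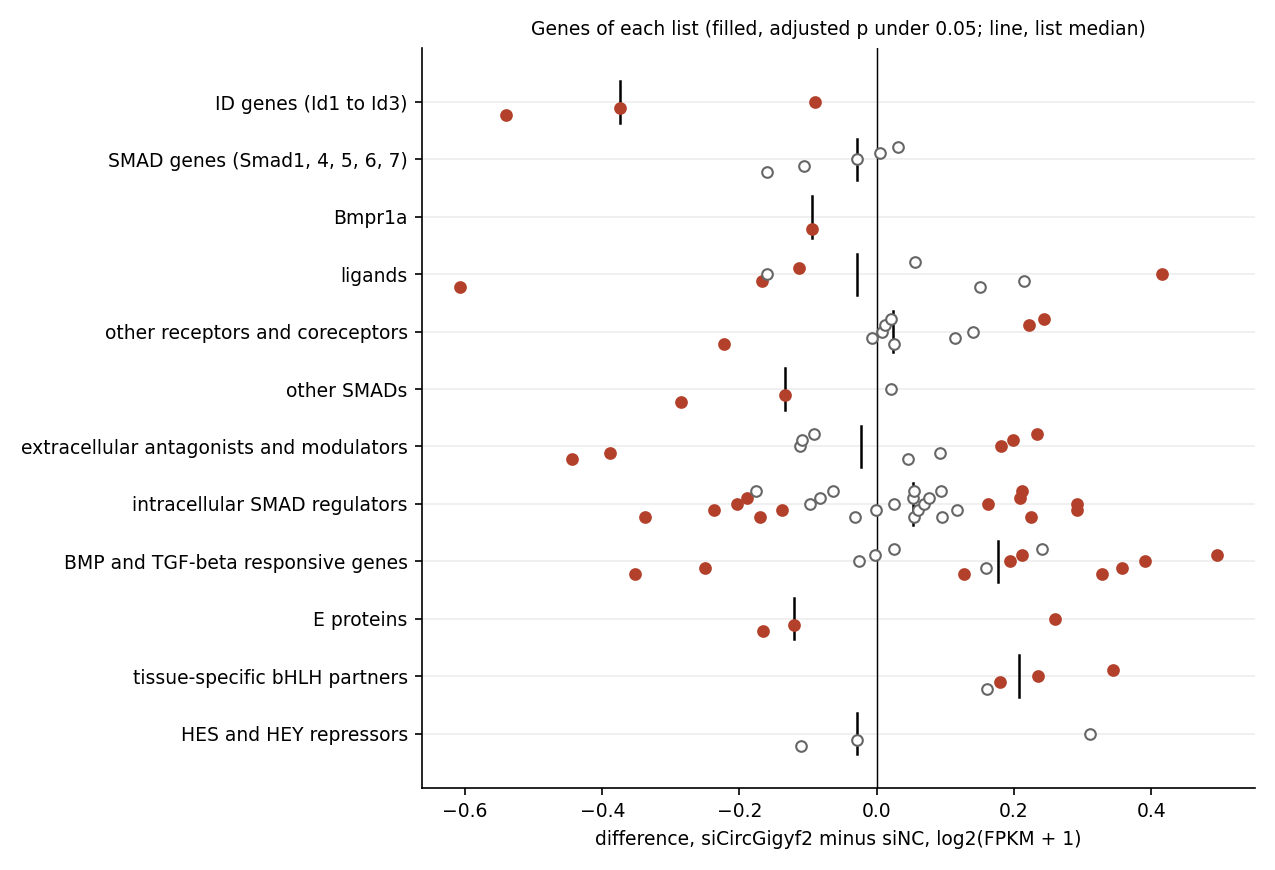
Difference on the log2(FPKM + 1) scale, siCircGigyf2 minus siNC (horizontal axis), for each tested gene of each list (rows); filled points had an adjusted p under 0.05, and the vertical line is the list's median. The 3 ID genes and Bmpr1a lie below 0, and the 5 SMAD genes have no filled point. Smad6 (-0.16) and Smad1 (-0.11) nevertheless lie farther below 0 than Bmpr1a and Id1 (both -0.09). Of the 9 lists of other genes, all but the tissue-specific bHLH genes hold genes on both sides.

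A 7-base sequence, GCCTACA, had been picked in earlier work on these same libraries from the 3′ UTRs of genes that fell, so its presence is given for these genes as a description only. None of the 10 genes held it in the 3′ UTR of its longest coding transcript (GENCODE M21), Id2 and Id3 included. Of all tested genes with a 3′ UTR, 678 of 10436 held it (6.50%), of which 264 fell and 87 rose. Over all genes tested, 18.7% fell and 19.5% rose. Since the sequence was picked from genes that fell, counts of its holders that fell or rose cannot test a link between it and a fall. Of the other pathway genes that were tested and had a 3′ UTR, 6 of 82 held it (7.32%). Of these, 3 fell (Bmpr2, Smad3 and Xiap, the last named after its value was seen). The sites are shown because these genes fell beside Id2 and Id3. Each is printed 5′ to 3′ on the gene's strand with GCCTACA in capitals, on build GRCm38: chr1:59873708-59873734 (plus strand), chr9:63649825-63649851 (minus strand) and chrX:42108211-42108237 (plus strand).
Bmpr2: acagaattcaGCCTACAtcgttttacc
Smad3: aaactggatgGCCTACAtaggtactcc
Xiap: atcccagaatGCCTACAtgaaacagga
Acvr1b, Ctdspl and Gata3 also held the sequence and did not pass the test. Bmp3 and Tgfbr2 held it too but were not tested.

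The genes with the profile nearest to that of Id2 over the 6 libraries, by root mean square difference of centred log2(FPKM + 1), were Frmd5 (0.028), Kif18b (0.035) and Hist1h3a (0.041), where the median over all genes was 0.288. Kif18b averaged 4.73 ± 0.392 against 7.51 ± 0.330 FPKM (SD, n = 3), Frmd5 1.82 ± 0.249 against 3.12 ± 0.098 FPKM, and Hist1h3a, one of a family of near-identical histone genes, 72.1 ± 3.11 against 107 ± 3.91 FPKM. Smad6 had the largest absolute difference of the 5 SMAD members in the reported fit but not without siCircGigyf2 replicate 1 (Smad6 -0.095, Smad1 -0.10). The genes nearest to Smad6 were Parp2 (0.035), Ccdc28a (0.038) and Wdr34 (0.043), none of which passed the test. For Smad6 the median over all genes was 0.159, lower than for Id2. The Parp2 difference of -0.16 passed without siCircGigyf2 replicate 3 (-0.23, limma adjusted p = 0.0488).

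Across the table, summed FPKM lay between 578627 and 624645, and steps in low values placed the libraries' depth between 0.802 and 0.914 of that of siNC replicate 1 in the siCircGigyf2 group and between 0.953 and 1 in the siNC group. Gigyf2, the host gene, averaged 21.4 ± 0.330 against 23.2 ± 0.075 FPKM (SD, n = 3; limma adjusted p = 0.0287), which pools linear and circular RNA and checks the knockdown label only weakly. Of 13 catecholaminergic neuronal markers, 12 had a mean of at least 1 FPKM, while Ddc was under it. In the siCircGigyf2 and siNC groups, Chgb was at 979 and 1081 FPKM and Phox2a at 59.3 and 68.3 FPKM. Both fell, though the Phox2a groups overlapped. Dbh fell too, narrowly, at only 1.14 and 1.77 FPKM (limma adjusted p = 0.0434). Th was at only 3.28 and 4.24 FPKM and did not pass. The neuronal tubulin gene Tubb3 rose, at 177 and 120.5 FPKM. The 13 markers summed to 1584 to 1632 FPKM in the siCircGigyf2 libraries and 1616 to 1650 FPKM in the siNC libraries. Of these markers 3 rose and 4 fell, where 19.5% of all genes tested rose and 18.7% fell. Markers of astrocytes, oligodendrocytes and microglia were all under 1 FPKM on average, whereas 2 of 5 fibroblast markers (1 of which rose, with Col1a2 and Lum listed at 0) and 1 of 5 endothelial markers were above it. The fibroblast markers summed to 3.70 to 4.13 FPKM in the siCircGigyf2 libraries and 3.40 to 4.10 FPKM in the siNC libraries, and the endothelial markers to 6.06 to 7.42 and 6.19 to 7.21 FPKM. The part of these cell types in the results was not tested. In bulk libraries, fewer cells that express a gene and less RNA of it per cell cannot be told apart.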

How the data were processed

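The authors deposited 1 table of FPKM per gene symbol and library for 6 CAD cell libraries depleted of ribosomal RNA. Per the submitters' processing notes the build was mm9. No source used here names the aligner, quantifier, annotation or strand handling, and the labels' protocol gives only a target depth, so no counting interval is given. Columns were matched to samples by title. FPKM express a gene relative to the rest of its library. Nothing in the labels says that replicates were separate cultures, so p-values may measure only technical spread.

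Differences are siCircGigyf2 minus siNC on log2(FPKM + 1), which understates changes of low genes, from limma 3.58.1 (R 4.3.3; 2 groups, trended empirical Bayes, two-sided), with Benjamini-Hochberg adjustment over all 11420 genes of mean FPKM at least 1. The fit was also run on simulated data with 200 changed genes and independent noise. Far more genes passed here, so that run cannot show how the fit performs on these data. The members and the 9 other pathway lists were chosen with earlier results of these data known. From each list the text names up to 3 genes past the threshold with the smallest p, and Smad2, Smad3, Smad9, Tcf3, Tcf4, Tcf12, Bmpr2, Acvr1 and Hand2 in any case. Tcf7l1 has its own row, so Tcf3 was read as E2A. Ratios and profiles used Python 3.11.15, numpy 2.4.6, pandas 2.3.3 and scipy 1.17.1. Upstream windows came from RefSeq (GRCm38.p6) and transcripts from GENCODE M21 (GRCm38), joined by symbol, since neither is on mm9. The 14 alternatives were no filter, a 5 FPKM filter, a pseudocount of 0.1, quantile or median-of-ratios scaling, a replicate block, robust or untrended empirical Bayes and each library left out.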

Additional observations from a re-analysis of the deposited data

How the results depend on the processing

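Over the 14 alternatives, genes past the threshold ranged from 3521 to 4442, and from 3521 to 3923 with 1 library left out, within 1.5 times the 4367 of the reported fit. The scalings moved the median over all genes by less than 0.01. Of the 10 members, 4 passed in the reported fit, 2 (Id2 and Id3) with 1 library left out, whichever it was (range 2 to 2), 2 without a variance trend, and 3 without a filter or with robust empirical Bayes. The replicate numbers do not pair the libraries by the labels, and same-numbered deviations correlated at 0.163, -0.0208 and 0.00253. In the fit with a replicate block, 3973 genes and 2 members (Id2 and Id3) passed, and not every library correlated best with its own number. The block ended the calls of Id1 (adjusted p = 0.0567), Bmpr1a (0.0804), Acvr2b (0.070), Smad2 (0.0547) and Tcf12 (0.0609).

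Differences that did not pass and changed sign were those of Smad5 (-0.0055, and -0.027 to 0.031 with 1 library left out), Smad7 (-0.0063, and -0.037 to 0.068), Acvr1 (-0.0065, -0.0010 after quantile normalization, and -0.0094 to 0.038) and Smad9 (-0.0076 to 0.055), each in a setting named with the gene. Of 252 list counts under alternatives, 34 differed by over 1.5 times. These were ligands that fell (1, against 3) or rose (2, against 1), receptors that rose (1, against 2), other SMADs that fell (1, against 2), antagonists that fell (1, against 2), responsive genes that fell (1, against 2), E proteins that fell (0 or 1, against 2), bHLH genes that rose (1, against 3) and HES and HEY genes that rose (1, against 0). Where a call depended on the block, the filter or the variance model, the cause was not tested. No counts were given, so what depth limits was not measured.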
